A study of Mus musculus with 9 samples.

Results

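Colon and small intestinal epithelial cells with overlapping transcript levels of Lgr5, the receptor that marks crypt base stem cells, were compared library by library. The 3 colon libraries with at least 20 CPM (counts scaled to the library total) of Lgr5 were set against all 3 small intestinal libraries, so that 6 of the 9 libraries of the series entered. The series profiled sorted epithelial cells of Lgr5-2A-eGFP mice, in which GFP is made together with Lgr5. All mice were 8 weeks old and carried the reporter, and no other treatment or allele is named in the labels. At least 30000 cells were sorted for each colon library and at least 50000 for each small intestinal library. These minimums differ with tissue, and their effect was not tested. The other 3 libraries are colon libraries with less Lgr5.

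Lgr5 stood at 43.5 CPM in colon GFP-high replicate 1, 73.0 CPM in colon GFP-high replicate 3 and 62.1 CPM in the colon library labelled GFP-negative replicate 2. It stood at 57.9, 120 and 209 CPM in small intestine replicates 1 to 3. The values of the 2 tissues overlapped, with small intestine replicate 1 between the second and the lowest colon library. Lgr5 was 5.80 RPKM (CPM divided by gene length in kilobases) on average in these colon libraries and 12.5 RPKM in small intestine. The nearest libraries under the limit were colon GFP-negative replicates 3 and 1 with 6.28 and 2.84 CPM, and the colon library labelled GFP-high replicate 2 had 0.958 CPM. The libraries were chosen by these measured Lgr5 values, which carry no test. The choice keeps 1 library against its label. Of the 58 called genes named below, 16 were not called without it, and their adjusted p without it is given beside them. It also narrows the colon spread of any gene that follows Lgr5. The labels do not state which GFP fraction the small intestinal libraries are, or whether any 2 libraries share an animal. The p-values therefore rest on the spread between these samples only, which may be technical.

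Lgr5 is a receptor for R-spondins and strengthens Wnt signalling at the crypt base, where cycling stem cells renew the epithelium of both tissues. Small intestinal stem cells sit between Paneth cells, which secrete antimicrobial peptides and niche signals. The colon has no Paneth cells, and deep crypt secretory cells, related to goblet cells, take their place at the crypt base. The gut tube keeps a positional code of homeobox and GATA transcription factors from development into adult life, and the absorptive cells of the small intestine take up fat, sugars and amino acids while those of the colon recover salt and water.

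The 6 libraries held 90613900 to 106673547 counts, at which 3 counts make 0.0232 to 0.0411 CPM. Mitochondrial genes held 0.678% to 1.26% of each library. On the first principal component (57.8% of the variance) the colon libraries lay between -160.0 and -81.0 and the small intestinal libraries between 77.1 and 135. In the quasi-likelihood test of edgeR 1454 of 18991 genes differed between the tissues at an adjusted p under 0.05 (7.66%), which is what "called" means below. Of these, 923 were higher in colon (4.86% of the genes tested) and 531 were lower (2.8%), with a median log2 fold change of -0.05 over all genes tested. Without the colon library labelled GFP-negative replicate 2 the count was 564, and 493 genes were called with all 6 libraries and also without each of them in turn.

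**Figure D1:**
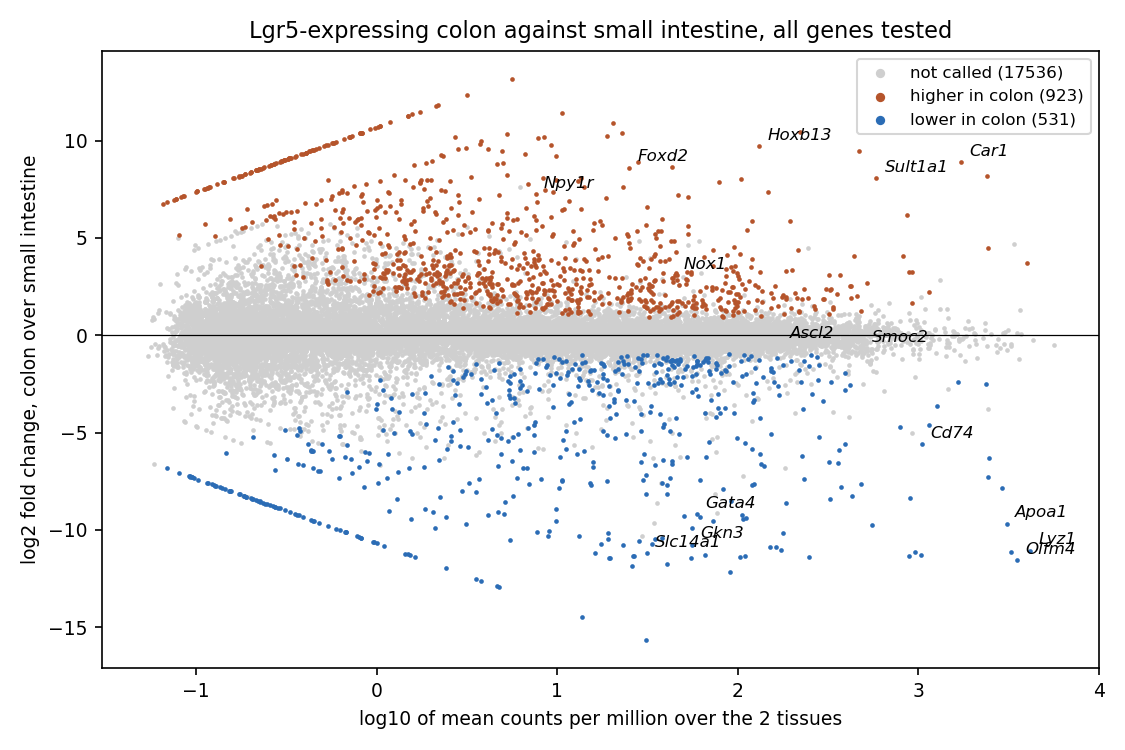
Log2 fold change (colon over small intestine, vertical axis) against the log10 of the mean CPM of both tissues (horizontal axis) for each gene tested except Lgr5. Coloured points are the 923 genes higher and 531 lower in colon; Olfm4 and Lyz1 lie at the lower right, Hoxb13 and Car1 at the upper right, and the stem cell genes Smoc2 and Ascl2 near 0.

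The markers of the 2 regions were separated by large factors at these Lgr5 levels. Npy1r (ENSMUSG00000036437.7, GRCm38 chromosome 8, 66697192 to 66706792, plus strand) encodes a cell surface receptor of the neuropeptide Y family, and the series title names it together with Nox1 as a mark of regional colon stem cells. It had 10.3, 18.0 and 16.9 CPM in the colon libraries (GFP-high replicates 1 and 3, then the library labelled GFP-negative replicate 2, the order used throughout) and 0.192, 0.117 and 0 CPM in small intestine replicates 1 to 3. Every colon library was far above every small intestinal one, a 146-fold difference (log2 fold change 7.27 ± 1.06 SE, adjusted p = 0.0077). It was called without each library in turn, but not with a replicate block by the labels' numbers (adjusted p = 0.0608) or by a tag shared in library names (adjusted p = 0.0651). In the block by tag, libraries whose tag is not shared add nothing to the difference.

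Nox1 (ENSMUSG00000031257.15, on the minus strand of chromosome X from 134086421 to 134221956) encodes the catalytic subunit of an epithelial NADPH oxidase that makes superoxide. It had 49.97, 74.3 and 117 CPM in colon and 5.83, 14.6 and 7.82 CPM in small intestine. The groups did not overlap, and the library labelled GFP-negative was the highest. The difference was 8.56-fold (log2 fold change 3.10 ± 0.47, adjusted p = 0.0089), and 2.72 ± 0.46 without that library (adjusted p = 0.0355). The other 3 colon libraries had 16.9, 34.2 and 9.82 CPM. With the 3 colon libraries labelled GFP-high the log2 fold change was 2.32 ± 0.59 and Nox1 was not called (adjusted p = 0.0719), nor was it with all 6 colon libraries (2.42 ± 0.77, adjusted p = 0.0776), with the Lgr5 limit lowered to 5 CPM (adjusted p = 0.0961) or with the block by tag (adjusted p = 0.0783). Npy1r was called with the GFP-high and with all 6 colon libraries (7.34 ± 1.15 and 7.12 ± 1.11, adjusted p = 0.0162 and 0.00345). The fits share the small intestinal libraries.

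Hoxb13 (ENSMUSG00000049604.4, chromosome 11, 96194316 to 96197447, plus strand), the most posterior gene of the HoxB cluster, had 396, 188 and 201 CPM in colon and 0.329, 0.332 and 0.279 CPM in small intestine. It was 835-fold higher in colon (log2 fold change 9.70 ± 0.49, adjusted p = 0.000132). Per length the 3 colon genes differed in level, with colon means of 119 RPKM for Hoxb13, 24.4 RPKM for Nox1 and 4.37 RPKM for Npy1r.

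Olfm4 (ENSMUSG00000022026.8, chromosome 14, 79984081 to 80023139, plus strand), a secreted olfactomedin and Notch-dependent stem cell marker of the small intestine, had 2.59, 2.29 and 2.21 CPM in colon and 4909, 8852 and 7396 CPM in small intestine. Gkn3 (ENSMUSG00000030048.6, chromosome 6, 87383256 to 87388935, minus strand), a gastrokine, had 0.0191, 0.112 and 0.0598 CPM in colon and 75.4, 146 and 114 CPM in small intestine. Both fell to traces in colon, Olfm4 by a log2 fold change of -11.54 ± 0.54 (adjusted p = 0.000124) and Gkn3 by one of -10.75 ± 0.67 (adjusted p = 0.000284). Per length the small intestinal mean of Olfm4 was 2381 RPKM and that of Gkn3 130 RPKM.

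**Figure D2:**
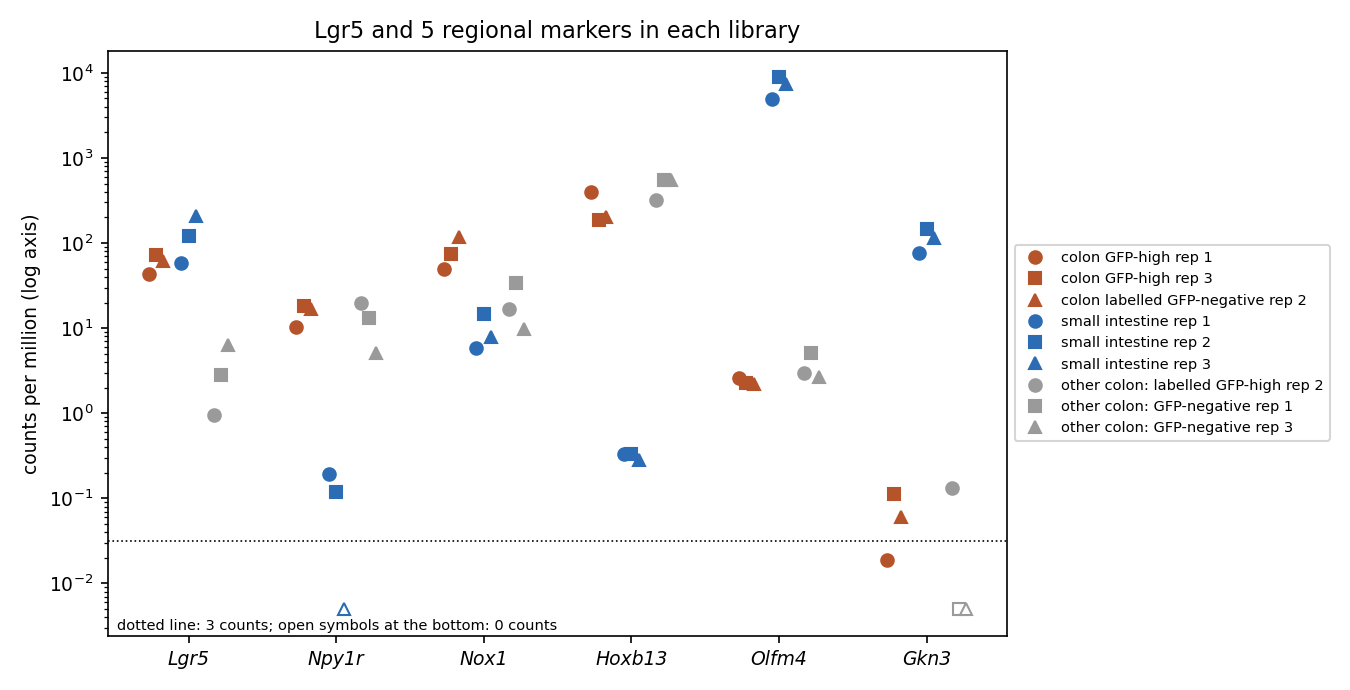
CPM (log axis) of Lgr5 and the 5 regional markers in each of the 9 libraries; each symbol is 1 library, with orange for the Lgr5-expressing colon, blue for small intestine and grey for the other colon libraries. Lgr5 overlaps between orange and blue, whereas Npy1r, Nox1 and Hoxb13 are higher in every orange symbol and Olfm4 and Gkn3 in every blue one.

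Around Nox1 the other parts of its oxidase differed less. Of 13 NADPH oxidase genes tested, Nox1 was the only one called in this fit, a share near the 7.66% of all genes tested. For 5 of the 13 all colon libraries were above all small intestinal ones, against 14.9% of all genes tested. Noxa1, its activator, had 311, 310 and 287 CPM in colon and 68.9, 166 and 152 CPM in small intestine (log2 fold change 1.23 ± 0.36, 95% interval 0.40 to 2.06, adjusted p = 0.0875). Noxo1, its organiser, had a log2 fold change of 0.93 ± 0.39 (interval 0.03 to 1.83, adjusted p = 0.234). Cyba, the membrane partner p22phox, had 0.41 ± 0.31 (interval -0.32 to 1.14, adjusted p = 0.536).

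Npy1r was likewise the only called gene among 4 tested of the neuropeptide Y family, a list too short to set against the 7.66% of all genes tested. Pyy, which encodes its ligand peptide YY and is made by enteroendocrine cells, had 173, 59.7 and 31.2 CPM in colon and 32.9, 0.410 and 0.263 CPM in small intestine. The lowest colon library was below the highest small intestinal one, and the log2 fold change of 2.97 ± 1.67 was not called (adjusted p = 0.389). Without small intestine replicate 1, its highest small intestinal library, Pyy was called at 8.03 (adjusted p = 0.0123). Pyy was also called with the block by tag (8.27, adjusted p = 0.00722). In that block small intestine replicate 1 shares its tag with no other library and adds nothing to the difference. The block by tag is therefore not a separate check of this result. The receptor gene Npy2r had at most 1.24 CPM in colon (1.78 ± 0.77, adjusted p = 0.251), and Npy, Npy4r and Npy5r had no count in any of the 6 libraries.

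Most stem cell genes did not pass the test, and those that did were all lower in colon. The median log2 fold change of the 34 stem cell genes tested (Lgr5 left out) was -0.61, against -0.05 for all genes tested. Of the 34, 0 were higher and 6 were lower, against 4.86% and 2.8% of all genes tested. Besides Olfm4 and Gkn3 these were Slc14a1, a urea transporter, Igfbp4, which binds insulin-like growth factors, the Wnt target Sp5 and Fstl1, a follistatin-like secreted protein. Slc14a1 had 0.0191, 0.0372 and 0.0199 CPM in colon and 32.5, 69.3 and 86.5 CPM in small intestine (log2 fold change -11.20 ± 0.62, adjusted p = 0.000181). In the other colon libraries it had 0.218, 0.0907 and 9.06 CPM, and with all 6 colon libraries it was not called (-5.32 ± 1.78, adjusted p = 0.0888). Igfbp4 had 14.6, 6.83 and 12.6 CPM in colon and 89.5, 203 and 244 CPM in small intestine (-3.98 ± 0.49, adjusted p = 0.00389). Sp5 had 4.68, 2.69 and 4.01 CPM in colon and 15.1, 35.8 and 45.0 CPM in small intestine (-3.08 ± 0.46, adjusted p = 0.00841). In both, small intestine replicate 1 was the lowest of its group, as it was for Lgr5. Fstl1 had a log2 fold change of -5.88 ± 1.28 (adjusted p = 0.033), but was called without only 2 of the 6 libraries in turn. It was not called without the GFP-negative replicate 2 library (adjusted p = 0.137) or without any of the small intestinal libraries (adjusted p = 0.0587 to 0.103). Without the GFP-negative replicate 2 library 5 stem cell genes were lower. Lgr5 itself, which was not tested, was also lower on average in colon.

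The shared stem cell genes lay within narrower bounds. Ascl2, a transcription factor of Lgr5 stem cells, had 200.5, 97.7 and 145 CPM in colon and 103, 297 and 201 CPM in small intestine. The groups overlapped, and the log2 fold change was -0.44 ± 0.43 with an interval of -1.44 to 0.57 (adjusted p = 0.644). Smoc2, a matricellular protein of crypt base cells, had 302, 435 and 420 CPM in colon and 305, 791 and 738 CPM in small intestine (-0.67 ± 0.40, interval -1.60 to 0.27, adjusted p = 0.424). Axin2, a feedback inhibitor of Wnt signalling, had -0.28 ± 0.32 (interval -1.03 to 0.46), and Sox9, a crypt transcription factor, 0.37 ± 0.42 (interval -0.60 to 1.35). Of the 28 genes not called, 21 overlapped between the tissues. Among all genes tested, a wider set that holds the called genes too, 28.4% did not overlap. Of the 28, 23 had an interval within 2 log2 units of 0 and 4 an interval within 1. Differences of 2-fold could thus not be seen for most. Of all 34 stem cell genes tested 12 were below and 1 above in every colon library, against 13.5% and 14.9% of all genes tested. Tnfrsf19, the Wnt target also called Troy, was below in every colon library (2.97, 8.29 and 5.21 against 11.4, 21.4 and 34.3 CPM) and just missed the threshold (-2.03 ± 0.51, adjusted p = 0.0559). Cd44, an adhesion receptor and Wnt target, was above in every colon library (133, 178 and 152 against 36.4, 87.6 and 91.0 CPM; 1.10 ± 0.37, adjusted p = 0.14).

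**Figure D3:**
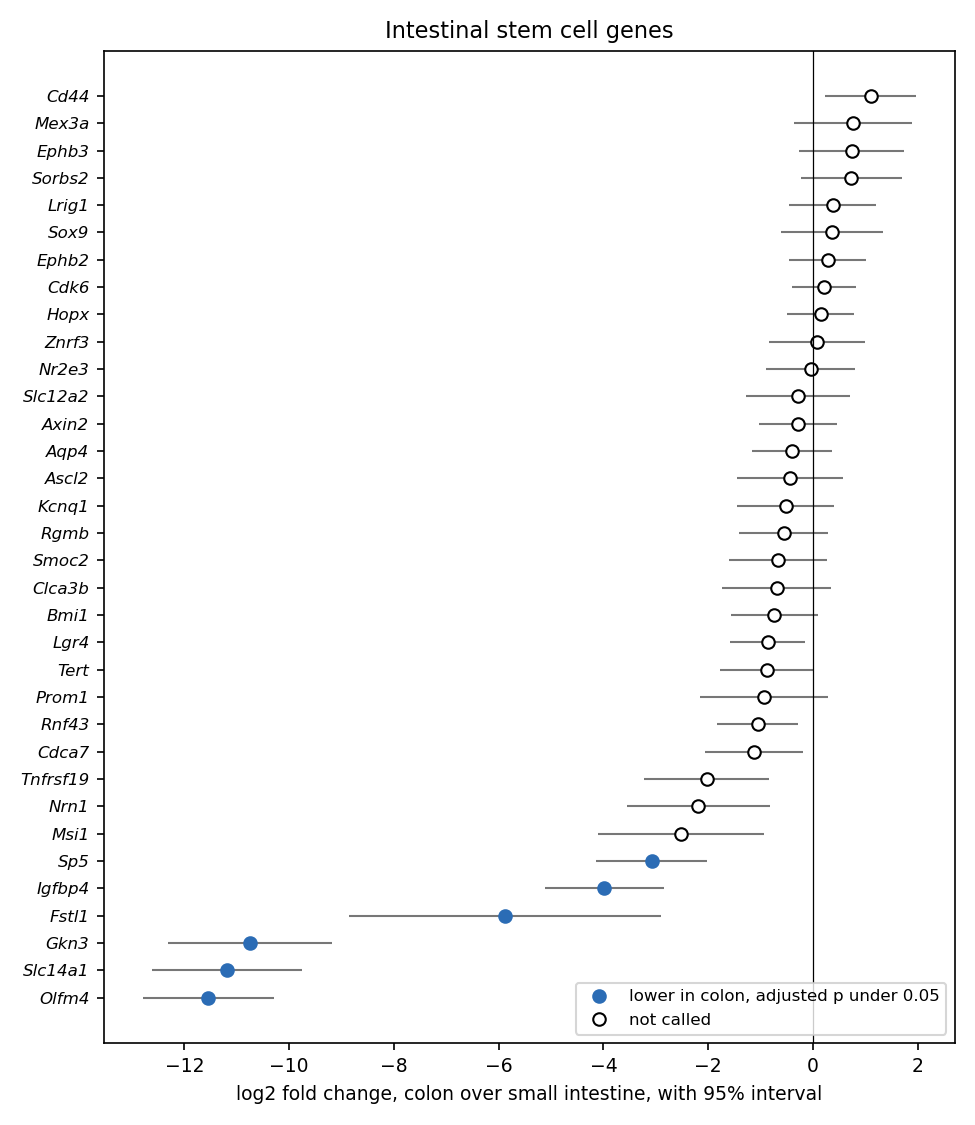
Log2 fold change (colon over small intestine, horizontal axis) of the 34 stem cell genes tested, with bars for the 95% interval. Filled points are the 6 genes called lower in colon, led by Olfm4; open points are the 28 not called, most of them with intervals that hold 0.

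Some genes of the Wnt pathway were called. Of 20 Wnt targets tested 1 was higher and 2 were lower in colon, with a median of -0.36. Among all genes tested 4.86% were higher and 2.8% lower. Without small intestine replicate 1, 1 was higher and 4 were lower, and with any other library left out 0 and 1. The higher one was Notum, a secreted enzyme that inactivates Wnt proteins, with 2.78, 3.04 and 1.45 CPM in colon and 0.548, 0.254 and 0.248 CPM in small intestine (log2 fold change 2.80 ± 0.56, adjusted p = 0.025). It was called in 8 of 19 alternative analyses and without 1 of the 6 libraries in turn (adjusted p = 0.0541 without the GFP-negative replicate 2 library). Dkk3, the other lower target besides Sp5, had at most 1.47 CPM in any library and lost its call whichever of the 6 libraries was left out (adjusted p = 0.0517 without GFP-negative replicate 2).

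Of 22 Wnt ligand and receptor genes 2 were higher and 4 lower, against 4.86% and 2.8% of all genes tested. Wnt3, the ligand that Paneth cells make, had 0.745, 0.372 and 0.508 CPM in colon and 4.63, 11.4 and 9.73 CPM in small intestine (-3.98 ± 0.50, adjusted p = 0.00413). Sfrp5, a secreted Wnt inhibitor, had 0.0191, 1.54 and 0.538 CPM in colon and 51.5, 139 and 177 CPM in small intestine (-7.45 ± 1.30, adjusted p = 0.0147, or 0.0838 without the GFP-negative replicate 2 library). The receptors Fzd5 (-1.39 ± 0.33, adjusted p = 0.0439) and Fzd8 (1.55 ± 0.30, adjusted p = 0.021) differed in opposite directions. Fzd5 lost its call whichever library was left out (adjusted p = 0.183 without GFP-negative replicate 2), and Fzd8 was called without 2 of the 6 (adjusted p = 0.0993 without GFP-negative replicate 2). Without the colon library labelled GFP-negative replicate 2, 1 gene of this list was higher and 1 lower, and without colon GFP-high replicate 3, 0 and 2. In the Notch list, Atoh1, the transcription factor that commits cells to secretory fates, had 241, 120 and 285 CPM in colon and 38.2, 40.9 and 27.7 CPM in small intestine (2.60 ± 0.38, adjusted p = 0.00774).

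All 11 posterior Hox genes that could be tested were higher in colon, against 4.86% of all genes tested, with a median log2 fold change of 9.28. With a library left out 9 to 11 of the 11 or 12 tested were called, and with the replicate blocks 6 by number and 8 by tag. They came from the HoxA, HoxB and HoxD clusters. The 6 posterior HoxC genes listed had no count in any of the 6 libraries, and Hoxd9 was not tested. Hoxa13 had 11.9, 13.5 and 14.3 CPM in colon and 0.0274, 0.0195 and 0.0155 CPM in small intestine (log2 fold change 9.28 ± 0.42, adjusted p = 0.000118). Hoxd13 had 4.53, 9.66 and 4.84 CPM in colon and no count in small intestine, so that it was at least 203-fold higher (adjusted p = 0.00208). In both, no small intestinal library held more than a trace. Hoxa9, at the front end of the posterior group, had 39.2, 33.2 and 31.8 CPM in colon and 0.137, 0.625 and 1.24 CPM in small intestine (5.68 ± 0.74, adjusted p = 0.00473). Traces of Hoxa9 were thus present in each small intestinal library.

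Of 14 anterior and middle Hox genes tested 7 were higher in colon and 0 lower, against 4.86% and 2.8% of all genes tested. Their median was 3.99. Hoxb7 had 47.4, 80.4 and 66.7 CPM in colon and 1.73, 8.76 and 1.24 CPM in small intestine (4.05 ± 0.78, adjusted p = 0.0214, or 0.0687 without the GFP-negative replicate 2 library). With the replicate blocks 1 of the 14 was called by number and 1 by tag. Without the colon library labelled GFP-negative replicate 2, 3 of the 14 were called, and without small intestine replicate 1, 3 of 16 tested. The count was 2 of 15 without colon GFP-high replicate 1. It was 4 of 15 without colon GFP-high replicate 3 and 4 of 16 without small intestine replicate 3. The antisense RNA Hoxa11os had 17.6, 13.8 and 15.7 CPM in colon and at most 0.0195 CPM in small intestine. It lies opposite Hoxa11, and whether strand was used in counting is not given in the sources used here, so its reads and those of Hoxa11 may not be separable.

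Of 33 other gut regional transcription factors tested, 7 were lower and 4 higher in colon, against 2.8% and 4.86% of all genes tested. Leaving out 1 library gave 3 lower and 2 higher without small intestine replicate 3, 4 and 2 without the GFP-negative replicate 2 library or colon GFP-high replicate 1, 4 and 3 without small intestine replicate 1, 6 and 2 without colon GFP-high replicate 3, and 8 and 2 without small intestine replicate 2. Gata4, which gives the foregut and jejunum their identity, had 0.0191, 0.316 and 0.279 CPM in colon and 128, 96.1 and 134 CPM in small intestine (log2 fold change -9.18 ± 0.89, adjusted p = 0.00167). Hnf4a, a nuclear receptor of absorptive cells in both tissues, had 145, 185 and 196 CPM in colon and 317, 396 and 421 CPM in small intestine (-1.11 ± 0.26, adjusted p = 0.043). It was called without 1 of the 6 libraries in turn (adjusted p = 0.149 without GFP-negative replicate 2). Foxa1, a pioneer factor of endoderm, had 86.4, 90.6 and 116 CPM in colon and 18.2, 42.1 and 40.0 CPM in small intestine (1.55 ± 0.36, adjusted p = 0.041), and was also called without 1 of the 6 (adjusted p = 0.16 without GFP-negative replicate 2). Foxd2, a forkhead factor chosen after its values were seen, had 49.1, 52.4 and 47.9 CPM in colon and 0.0274, 0.176 and 0.163 CPM in small intestine (8.60 ± 0.61, adjusted p = 0.000437). Pdx1, a factor of the duodenum and pancreas chosen in the same way, had 0.0191, 0.410 and 0.279 CPM in colon and 11.1, 11.7 and 8.32 CPM in small intestine (-5.45 ± 0.89, adjusted p = 0.0116, or 0.059 without the GFP-negative replicate 2 library). Cdx1, an intestinal master regulator, was not called (0.68 ± 0.39, adjusted p = 0.393).

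Many genes of small intestinal absorption were lower in colon, and their level differed widely among the small intestinal libraries. Of 19 brush border genes 14 were lower and 0 higher (median -5.12), and of 21 fat absorption genes 16 were lower and 1 higher (median -5.26). Of 18 sugar, peptide and amino acid transporters 8 were lower and 0 higher (median -4.28). Among all genes tested 2.8% were lower and 4.86% higher. Alpi, intestinal alkaline phosphatase, had 0.305, 6.5 and 1.73 CPM in colon and 1852, 20.6 and 696 CPM in small intestine (log2 fold change -8.23 ± 1.86, adjusted p = 0.0377). Apoa1, the apolipoprotein of high-density lipoprotein, had 11.6, 1.41 and 9.66 CPM in colon and 14767, 117 and 3727 CPM in small intestine (-9.68 ± 1.92, adjusted p = 0.0236). Fabp1, a fatty acid carrier, had 27.6, 54.5 and 11.5 CPM in colon and 12531, 323 and 1688 CPM in small intestine (-7.28 ± 1.5, adjusted p = 0.0273). Without the GFP-negative replicate 2 library none of these 3 genes was called (adjusted p = 0.158 for Alpi, 0.108 for Apoa1 and 0.115 for Fabp1). In each of these genes small intestine replicate 1 was the highest and replicate 2 the lowest of its group. Summed over the 22 fat absorption genes the small intestinal libraries held 42035, 1630 and 10498 CPM and the colon libraries 516, 676 and 545 CPM.

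The calls in these 3 lists changed with the library left out. Without the colon library labelled GFP-negative replicate 2, 0 of the brush border, 2 of the fat absorption and 2 of the transporter genes were called lower, and without small intestine replicate 1 the counts were 6, 8 and 4. They were 1, 5 and 2 without colon GFP-high replicate 1, 5, 6 and 2 without colon GFP-high replicate 3, and 5, 6 and 3 without small intestine replicate 3. Without small intestine replicate 2, the library lowest in these genes, they rose to 17, 18 and 15. Slc7a8, an amino acid transporter, kept its call without each library in turn. It had 3.23, 2.74 and 2.13 CPM in colon and 145, 47.1 and 82.2 CPM in small intestine (-5.08 ± 0.49, adjusted p = 0.00159). In bulk libraries fewer cells of a type and less RNA per cell cannot be told apart.

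Short promoter sequences of 2 of these genes are shown because both hold the same 9-base motif of the nuclear receptor HNF4. The 250 bases before the RefSeq start (GRCm38.p6, RefSeq promoter table) are given 5′ to 3′ on the gene's strand, with the match in capitals. It was one of 4 motifs searched, all chosen after the data were seen and this one shown because the ratio of its shares differed most (in percentage points the GATA and TCF motifs differed more), and a match is a description of the letters only.
Alpi, chr1:87101607-87101856, minus strand: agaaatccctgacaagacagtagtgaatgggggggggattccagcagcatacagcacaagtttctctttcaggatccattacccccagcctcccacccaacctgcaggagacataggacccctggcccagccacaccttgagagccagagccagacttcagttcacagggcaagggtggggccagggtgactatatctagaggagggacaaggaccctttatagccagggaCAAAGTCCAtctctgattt
Treh, chr9:44672983-44673232, plus strand: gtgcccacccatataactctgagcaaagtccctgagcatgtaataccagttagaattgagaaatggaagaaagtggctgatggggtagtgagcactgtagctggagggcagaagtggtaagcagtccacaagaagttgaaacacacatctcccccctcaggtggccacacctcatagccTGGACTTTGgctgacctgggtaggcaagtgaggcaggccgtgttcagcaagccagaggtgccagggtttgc
In Alpi the match reads CAAAGTCCA and in Treh it reads TGGACTTTG, the same motif on the other strand. Searched on both strands, CAAAGTCCA was present in 2.521% of 476 promoter windows of genes lower in colon, 0.5019% of 797 windows of genes higher in colon, 0.3677% of 13598 windows of genes not called and 0.3835% of all 32851 windows in the table. The matches in the lower set came from 11 genes, of which 3 are the related genes Pilra, Pilrb1 and Pilrb2, and 8 of the 11 also held the GATA motif. The GATA motif AGATAA was present in 12.82%, 6.399%, 6.295% and 9.988% of the same sets of windows in that order. The TCF motif CTTTGAT was present in 6.933%, 2.133%, 2.265% and 3.205%, and in 4.348% of the lower set without defensins. The HOX13 and CDX motif CAATAAA was present in 2.731%, 2.76%, 2.515% and 4.204%. Windows were at hand for 375 of the 531 lower and 598 of the 923 higher genes. Treh, which encodes the brush border enzyme that splits trehalose and is named for its sequence, had 0.592, 0.335 and 0.259 CPM in colon and 144, 2.65 and 80.0 CPM in small intestine (log2 fold change -7.57 ± 1.38, adjusted p = 0.0173, or 0.0886 without the GFP-negative replicate 2 library). As with Alpi, small intestine replicate 2 was the lowest of its group and still above each colon library.

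Paneth cell genes were lower in colon almost throughout, with 21 of 26 tested lower, 2 higher and a median log2 fold change of -10.80. The shares of all genes tested were 2.8% lower and 4.86% higher. Lyz1, the Paneth cell lysozyme, had 4.56, 2.89 and 4.29 CPM in colon and 9598, 9304 and 6208 CPM in small intestine (-11.06 ± 0.55, adjusted p = 0.000132). Itln1, a lectin that binds microbial glycans, had 5.60, 10.1 and 61.1 CPM in colon and 5214, 7783 and 4400 CPM in small intestine (-7.82 ± 1.11, adjusted p = 0.00685). The defensin Defa24 fell by 11.14 ± 0.71 on the log2 scale (adjusted p = 0.000294). Defensin genes are near-identical copies, and how reads that fit several of them were counted is not given in the sources used here, so single defensin values are uncertain. The 2 higher genes were Mptx1 and Nupr1. Mptx1, a mucosal pentraxin, had 2200, 2867 and 9288 CPM in colon and 15.2, 11.0 and 22.5 CPM in small intestine (8.20 ± 0.81, adjusted p = 0.00183). It was higher still in the other colon libraries, at 27670 to 44408 CPM.

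Some secretory genes were higher in colon. Of 23 goblet cell genes 11 were higher and 0 lower (median 1.57), and of 13 deep crypt secretory genes 4 were higher and 2 lower (median 1.84). Of 28 mucin glycosyltransferases 12 were higher and 2 lower (median 0.94). The shares of all genes tested were 4.86% higher and 2.8% lower. Without the colon library labelled GFP-negative replicate 2 the higher counts were 6, 2 and 4. Without colon GFP-high replicate 1, 7 goblet genes were called higher; without small intestine replicate 2, 2 deep crypt secretory genes; and without small intestine replicate 3, 4 glycosyltransferases. Muc2, the gel-forming mucin, had 2341, 1021 and 1631 CPM in colon and 369, 61.2 and 93.9 CPM in small intestine (3.25 ± 0.74, adjusted p = 0.0378), and was called without 1 of the 6 libraries in turn (adjusted p = 0.111 without GFP-negative replicate 2). Klk1, a secreted kallikrein protease, had 4549, 3060 and 6389 CPM in colon and 332, 183 and 103 CPM in small intestine (4.50 ± 0.58, adjusted p = 0.00457), and was called without each library in turn. Reg4, a secreted lectin of deep crypt secretory cells, had 1035, 806 and 17707 CPM in colon and 355, 239 and 175 CPM in small intestine. Every colon library was above, the one labelled GFP-negative by far the most, and Reg4 was not called (4.67 ± 1.27, adjusted p = 0.0713). Without that library the log2 fold change was 1.84 (adjusted p = 0.0745), and without colon GFP-high replicate 3 it was 5.19 and called (adjusted p = 0.0431). Cps1, a urea cycle enzyme, went the other way, with 25.1, 11.9 and 139 CPM in colon and 1175, 1802 and 1580 CPM in small intestine (-4.70 ± 0.94, adjusted p = 0.0243). It was called without 3 of the 6 libraries in turn. The call was lost without colon GFP-high replicate 1 (adjusted p = 0.0905) and without small intestine replicates 1 and 3 (adjusted p = 0.0582 and 0.0683).

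Among the glycosyltransferases, St6galnac6, which adds sialic acid, had 450.1, 269 and 431 CPM in colon and 3.37, 3.07 and 13.3 CPM in small intestine (5.86 ± 0.71, adjusted p = 0.00373). B3galt5, a galactosyltransferase named after its values were seen, had 92.3, 71.4 and 114 CPM in colon and 0.960, 0.430 and 0.527 CPM in small intestine (7.19 ± 0.46, adjusted p = 0.000284). In both, no library of one tissue came near the other.

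All 7 MHC class II genes were lower in these colon libraries, against 2.8% of all genes tested. Cd74, the invariant chain, had 54.0, 53.1 and 21.6 CPM in colon and 2496, 2599 and 1054 CPM in small intestine (-5.58 ± 0.59, adjusted p = 0.00221). H2-Ab1, a class II beta chain, had 9.53, 18.3 and 8.25 CPM in colon and 1061, 775 and 318 CPM in small intestine (-5.90 ± 0.61, adjusted p = 0.00208). The 7 genes summed to 45.9 to 98.3 CPM in these colon libraries, 1705 to 4466 CPM in small intestine and 257 to 8402 CPM in the other colon libraries. With the 3 colon libraries labelled GFP-high 1 of the 7 was called, and with all 6 colon libraries 0.

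Immune cell markers were also lower in these colon libraries, and followed class II in some libraries but not in others. The 23 immune genes summed to 14.0 to 26.2 CPM in these colon libraries, 26.7 to 142 CPM in small intestine and 479 to 4170 CPM in the other colon libraries. Of 17 tested 1 was higher and 3 were lower, against 4.86% and 2.8% of all genes tested. Of the 17, 12 were below in every colon library, against 13.5% of all genes tested. The 3 lower calls were 0 without the GFP-negative replicate 2 library, 1 without small intestine replicate 3 and 5 without small intestine replicate 2. Small intestine replicate 1 had 142 CPM of immune genes and 4466 CPM of class II genes, the highest of its group in both. Small intestine replicate 2 had 26.7 and 4176 CPM, and replicate 3 had 69.1 and 1705 CPM. Colon GFP-negative replicate 3 was the highest of all libraries in both lists (4170 and 8402 CPM). The colon library labelled GFP-high replicate 2 had 479 and 949 CPM, and colon GFP-negative replicate 1 had 727 and 257 CPM. Cd3g, a T cell receptor subunit named after its values were seen, had 0, 0.112 and 0.14 CPM in colon and 8.62, 1.72 and 4.08 CPM in small intestine (adjusted p = 0.0244, or 0.0861 without the GFP-negative replicate 2 library), and Itgax, a dendritic cell integrin, had no count in these colon libraries. Ptprc, the common leukocyte antigen, overlapped between the tissues at 0.916, 17.3 and 2.49 against 3.99, 1.80 and 11.1 CPM. The part of immune cells in the class II values was not tested. Of 11 epithelial identity genes 0 were called, against 7.66% of all genes tested. Epcam, the epithelial adhesion molecule, ranged from 3066 to 4624 CPM in colon and from 3103 to 6207 CPM in small intestine.

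A few genes of salt handling and colonocyte metabolism were higher in colon. Among all genes tested 4.86% were higher and 2.8% lower. Of 26 ion and water transport genes 4 were higher and 3 lower (median -0.07), the lower count being 0 without the GFP-negative replicate 2 library or colon GFP-high replicate 1, and 1 without colon GFP-high replicate 3 or small intestine replicates 1 or 3. Of 29 colonocyte genes 5 were higher and 2 lower (median 0.32), with 4 lower without small intestine replicate 2 and 1 when any of the 3 colon libraries was left out or small intestine replicate 3 was. Hsd11b2, which protects the mineralocorticoid receptor from glucocorticoids, had 152, 105 and 145 CPM in colon and 13.3, 12.1 and 9.25 CPM in small intestine (3.54 ± 0.29, adjusted p = 0.000858). Sgk1, an aldosterone-induced kinase, had 140, 191 and 119 CPM in colon and 41.7, 19.5 and 34.7 CPM in small intestine (2.23 ± 0.36, adjusted p = 0.0108). Both were called under all 19 alternatives. Car1, a carbonic anhydrase, had 466, 6856 and 3038 CPM in colon and 2.44, 2.97 and 16.2 CPM in small intestine (8.90 ± 1.41, adjusted p = 0.0104). It was higher again in the other colon libraries, at 10064 to 24674 CPM. Sult1a1, a sulfotransferase, had 767, 1312 and 1432 CPM in colon and 3.30, 5.54 and 4.14 CPM in small intestine (8.08 ± 0.47, adjusted p = 0.000232).

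Receptors for microbial products were higher in 4 of 21 cases and lower in 0 (median 0.43), against 4.86% and 2.8% of all genes tested. Ffar2, a receptor for short-chain fatty acids, had 129, 120.3 and 119.5 CPM in colon and 10.8, 6.85 and 5.47 CPM in small intestine (3.99 ± 0.33, adjusted p = 0.000902). Tlr1, a receptor for bacterial lipopeptides, had 21.1, 24.9 and 23.4 CPM in colon and 5.83, 6.10 and 6.16 CPM in small intestine (1.94 ± 0.23, adjusted p = 0.00364). The libraries of each tissue lay close together in both genes. Of 13 regeneration and fetal-like genes 6 were higher and 0 lower (median 1.64), against the same 4.86% and 2.8%. The count was 3 without colon GFP-high replicate 3, without the colon library labelled GFP-negative replicate 2 and without small intestine replicate 3, and 4 without either replicate 1. Anxa1, a phospholipid-binding annexin, had 174, 161 and 138 CPM in colon and 1.04, 0.703 and 0.279 CPM in small intestine (7.88 ± 0.57, adjusted p = 0.000488).

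Genes of growth were not called in either direction. None of 20 mitosis, 20 DNA replication, 16 ribosome biogenesis and 20 cholesterol synthesis genes passed edgeR's threshold, with medians of -0.30, -0.30, -0.43 and 0.28. For 9 of the 20 cholesterol genes every colon library was above every small intestinal one, against 14.9% of all genes tested. Ube2c, a ubiquitin-conjugating enzyme of mitosis, had 483, 320 and 441 CPM in colon and 473, 709 and 371 CPM in small intestine (-0.32 ± 0.33, interval -1.09 to 0.45). Fdps, an enzyme of isoprenoid synthesis, had 762, 344 and 408 CPM in colon and 280, 218 and 235 CPM in small intestine (1.04 ± 0.36, interval 0.22 to 1.87, adjusted p = 0.143).

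**Figure D4:**
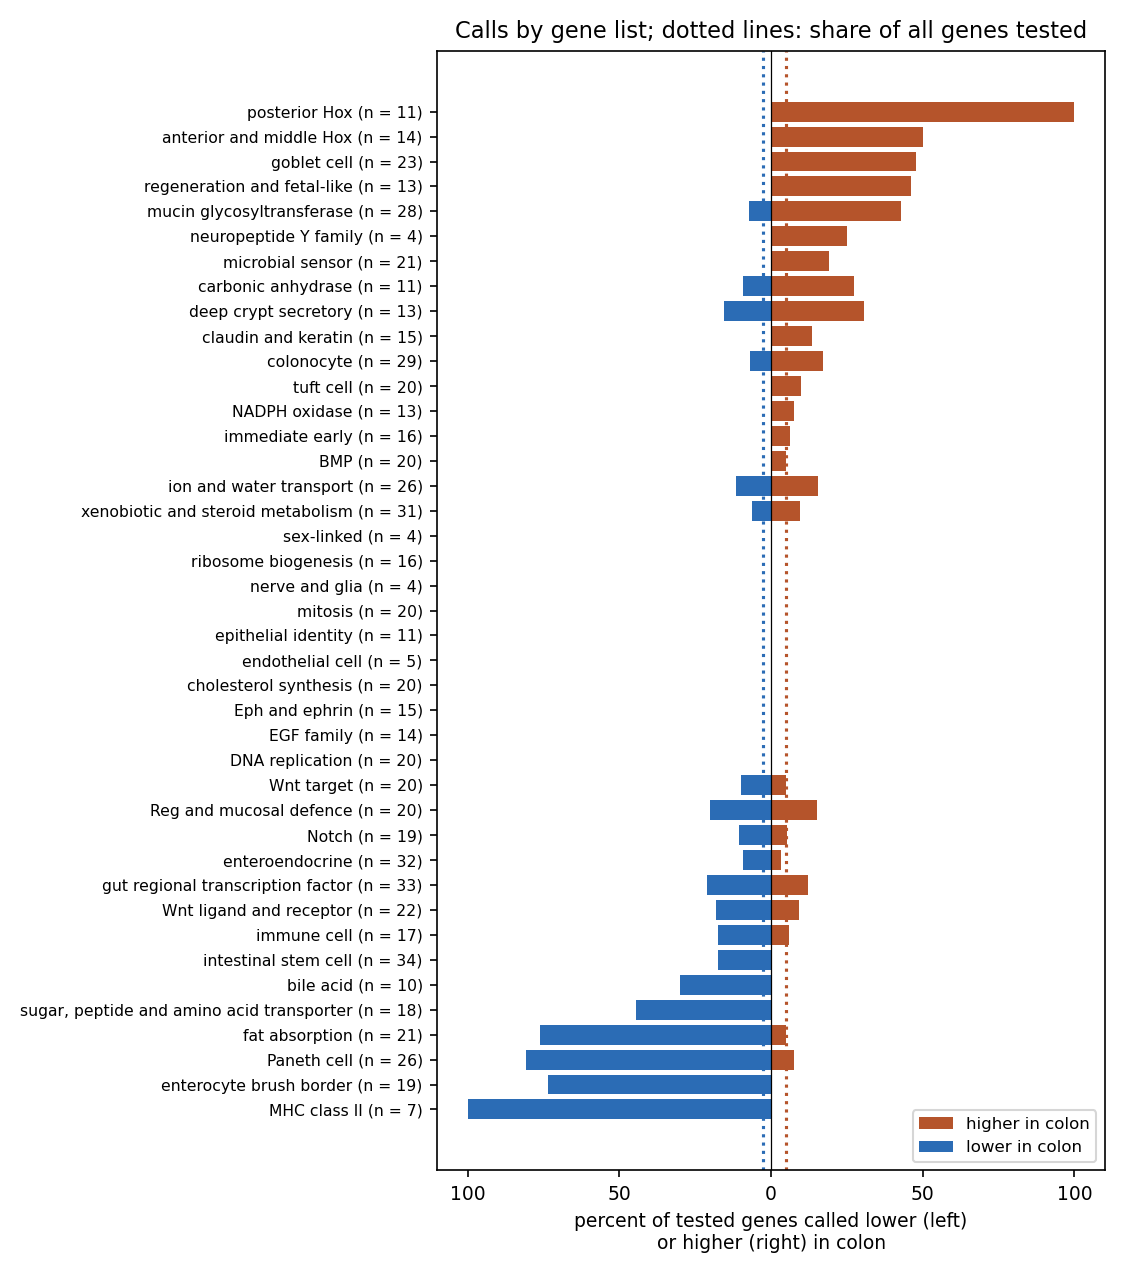
Percent of the tested genes of each list with at least 4 of them called lower (left) or higher (right) in colon, with dotted lines at 2.8% and 4.86%, the shares of all genes tested. Posterior Hox genes reach the right edge, MHC class II genes the left edge, and the mitosis and DNA replication lists have no bar.

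**Figure D5:**
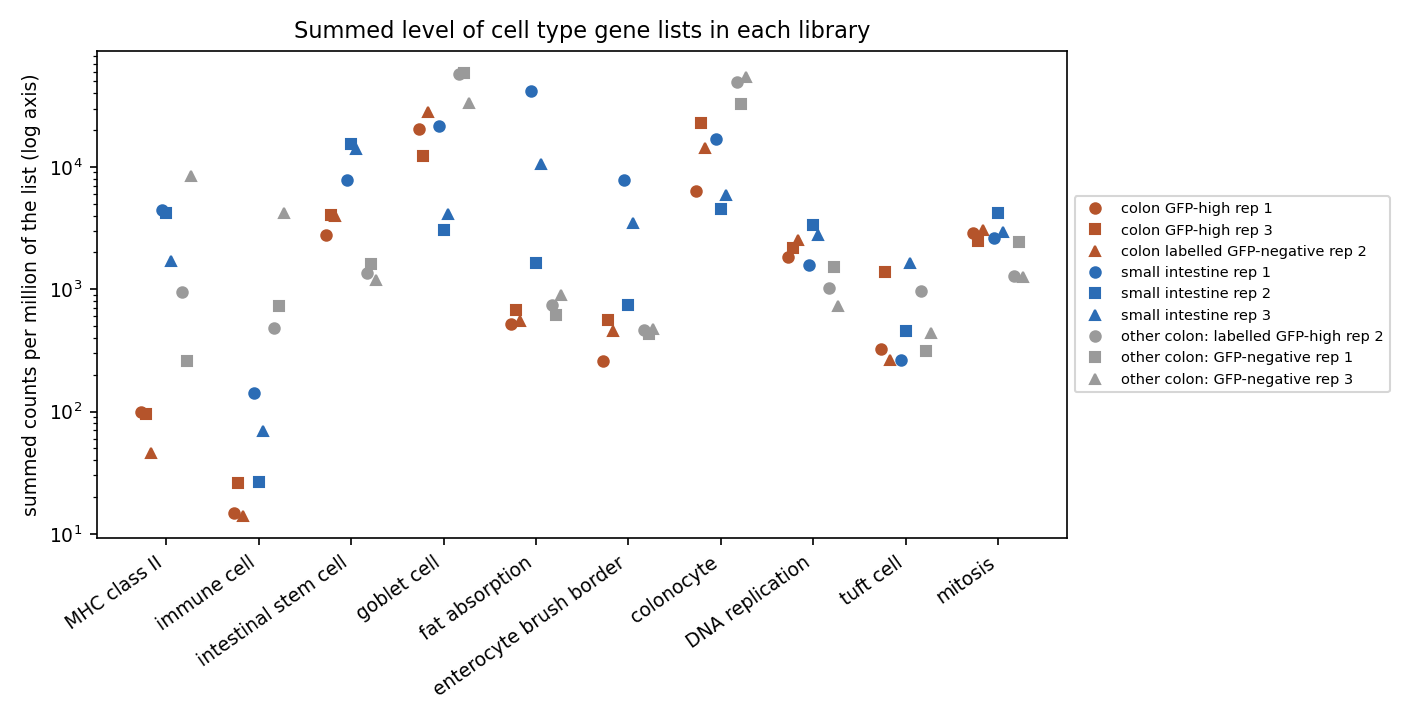
Summed CPM of selected gene lists (log axis) in each library, with colours for the Lgr5-expressing colon, small intestine and the other colon libraries. Fat absorption genes spread most within small intestine, from 1630 to 42035 CPM, and MHC class II genes are lowest in the Lgr5-expressing colon.

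Among the genes with the largest changes toward colon, Lrrtm1, a leucine-rich repeat protein of synapses, had 9.12, 9.56 and 14.9 CPM in colon and no count in small intestine. It was at least 358-fold higher, with a floor of 3 counts in each library (adjusted p = 0.000889). Ccn3, a matricellular protein, had 483, 252 and 585 CPM in colon and 0.302, 0.293 and 0.356 CPM in small intestine (10.43 ± 0.51, adjusted p = 0.000132). Toward small intestine, Cyp2e1, a cytochrome P450, had 0.0382, 0 and 0 CPM in colon and 35.3, 37.3 and 82.8 CPM in small intestine (-11.85 ± 0.98, adjusted p = 0.000877). None of these 3 genes had overlapping groups. Among abundant genes outside the lists, Fam3d, a secreted gut protein, had 1752, 908 and 1998 CPM in colon and 145, 55.4 and 79.1 CPM in small intestine (4.06 ± 0.52, adjusted p = 0.00453). Ccl25, the chemokine that draws lymphocytes to the small intestine, had 14.8, 13.9 and 20.1 CPM in colon and 1574, 393 and 342 CPM in small intestine (-5.56 ± 0.71, adjusted p = 0.0046). Lgals2, a galectin, had 58.3, 30.7 and 93.2 CPM in colon and 8595, 4125 and 1934 CPM in small intestine (-6.33 ± 0.77, adjusted p = 0.00382). All 3 were called without each library in turn.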

How the data were processed

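Polyadenylated RNA of sorted epithelial cells was sequenced in 9 libraries. Reads were aligned to mm10, and the tools STAR, Subread, featureCounts and edgeR are listed, per the submitters' processing notes. Their versions and the handling of strand and multimappers: not given in the sources used here. The deposited table holds raw read counts per gene, log2 CPM, log2 RPKM and log2 TPM values computed by the authors, and a TMM scaling ratio per library made by the authors.

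CPM were computed from the counts on the deposited library totals times that ratio, RPKM with the deposited gene lengths. Raw counts of the 6 libraries were tested with edgeR 4.0.16 (R 4.3.3; quasi-likelihood, filterByExpr by tissue, Benjamini-Hochberg adjustment over 18991 genes, threshold 0.05), with standard errors and 95% intervals from the same fit. On simulated counts the fit called 55 of 100 genes set to differ 4-fold, 98 of 100 set to differ 16-fold and 10 of 17834 unchanged genes. The changed genes were drawn from those above a CPM limit. A gene not called can thus still differ 4-fold. DESeq2 1.42.0, limma 3.58.1 and 17 other alternatives, among them other scalings, filters, colon libraries, replicate blocks and each library left out, were run. Intervals cover counting error and spread between libraries only. Positions are from GENCODE M21.

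The members and lists were chosen with earlier results of these data known. Named genes are the markers, the 10 largest called changes each way with at least 5 CPM in the higher tissue, the most abundant members of each list (up to 3 called, 2 not), every called stem cell and Wnt target gene, and abundant called genes in no list; only a part of them is described. Axin2, Tnfrsf19, Sox9, Cd44, Wnt3, Noxo1, Cyba, Npy, Npy2r, Npy4r, Npy5r, Hoxa11, Hoxa13, Hoxd9, Hoxd13, Pdx1, Foxd2, Nupr1, Treh, B3galt5, Cd3g and Itgax fall outside that rule and were chosen after their values were seen. Some genes are not reported here.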

Additional observations from a re-analysis of the deposited data

How the results depend on the processing

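The count of 1454 genes (923 higher, 531 lower) was 2633 (1534 higher, 1099 lower) with DESeq2, 2293 without the low-count filter (1012 lower) and 2231 with all 6 colon libraries (945 lower). With the 3 colon libraries labelled GFP-high, 341 genes were lower. Leaving out each library in turn gave 564 to 1322 genes, 392 to 684 higher and 172 to 638 lower. The replicate block by the labels' numbers gave 545 (373 higher, 172 lower), and the replicate block by a tag shared in library names gave 516 (304 higher, 212 lower), both of which ended the call of Npy1r (adjusted p = 0.0608 and 0.0651), and the latter that of Nox1 (adjusted p = 0.0783). In the block by tag, small intestine replicate 1 and the colon library labelled GFP-negative replicate 2 share their tag with none of the 6 libraries. They add nothing to the tissue differences of that fit, so pairing and the loss of these libraries cannot be told apart. Same-numbered libraries correlated at -0.10, 0.02 and 0.15 in their deviations, and only the third pair correlated best with its own number, so the numbers were not taken as a pairing. The 2 pairs that share a tag correlated at 0.17 and 0.15, each the best match of its colon library; what the tag stands for is not stated in the labels. Of 58 called genes named, 30 were called in every alternative that tested them and 41 without each library in turn. The sign of Cd3g, 1 of the 58, turned with the colon libraries labelled GFP-high (0.95), all 6 (3.38) and a Lgr5 limit of 5 CPM (3.77). Among 17 genes not called, 3 changed sign. Ptprc did so with limma-voom (-0.37) and in the replicate blocks (-0.28 and -0.15), and ranged from -1.73 to 1.25 with each library left out in turn. Sox9 did so with all 6 colon libraries (-0.0224). With each library left out, Epcam ranged from -0.46 to 0.019. The causes were not tested. Scaling by total counts moved the median of all genes by 0.12 on the log2 scale. Depth limits values near 3 counts, or 0.0232 to 0.0411 CPM.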
